A study of Mus musculus with 4 samples.

Results

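DNA methylation in mouse pancreatic islets was compared with that in mouse sperm, using both islet libraries against both sperm libraries of the series, which are all 4 of its 4 samples. Methylated DNA had been enriched with an antibody against 5-methylcytosine and sequenced (MeDIP-seq), and a peak is an interval where the recovered reads, called tags, are denser than the local background. Peaks on the 19 autosomes of the 4 lists were merged wherever they shared at least 1 bp. This gave 301550 union regions, of 307189 when the sex chromosomes and the mitochondrial genome are counted too. Tag ratios between tissues were then taken only in regions in which both libraries of each tissue held a peak.

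All animals were ICR mice, an outbred strain, and each library is labelled with the condition of the father. The first islet library came from 3-week-old offspring of control fathers (paternal control), and the second from 3-week-old offspring of fathers with an induced type 2 diabetes model (paternal T2D). The sperm libraries came from 16-week-old founder males, control and T2D. Control founders ate a control diet. T2D founders were kept on fat-rich chow (33% of its energy from fat) to 12 weeks of age, then received a low dose of streptozotocin, a toxin of insulin-producing cells, and stayed on the diet for 4 weeks; only fasting glucose of 7 to 11 mM counted as T2D. Their mates were on standard diet. Islets were taken from 6 offspring and sperm from 6 founders per condition, and the labels do not say how animals were combined in a library. Sperm had passed a somatic cell lysis step that islets had not, and the sex of the offspring is not given. Tissue, age, generation and preparation therefore cannot be told apart in any difference described here. The 2 libraries of a tissue differ in condition, so their difference, used below as the noise scale, holds both the condition and the technical spread.

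In mammals most cytosines in CpG dinucleotides carry a methyl group, and CpG islands at promoters are mostly free of it. Sperm DNA is heavily methylated across most of the genome, is packed with protamines, and is largely reprogrammed after fertilisation, so that a somatic tissue such as the islet carries a pattern laid down afterwards. Islets are clusters of endocrine cells, mainly beta cells that secrete insulin and alpha cells that secrete glucagon, with some surrounding exocrine and vessel cells. The antibody recovers stretches with many methylated CpGs best, so tag counts report both methylation and CpG density. The lists hold no gene names and no annotation of their genome build (mm9) was used here. Regions are therefore given by position, and the labelled tissues were not checked against marker genes.

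The autosomal islet lists held 164458 (control) and 163824 (T2D) peaks with 8107950 and 8077079 tags in all. The sperm lists held 175523 and 176823 peaks with 10992137 and 10972389 tags. Tags of a region were divided by these sums and are given per 1000000 tags (scaled tags), so a ratio says how a library distributes its peak tags and not how much methylation it holds in total. Between 46.5% and 47.0% of each list's tags fell in regions with a peak in all 4 libraries.

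Peak calls were alike within both tissues in 117548 union regions, or 39.0%. Of these, 65368 were called in every library. A further 24603 were islet-only, with a peak in each islet list and none in the sperm lists, and 27577 were sperm-only. With the best 100000 peaks of each list the order turned, to 18998 islet-only and 16871 sperm-only regions. The other 184002 regions were called in only 1 library of at least one tissue. They enter no tag ratio and no islet-only or sperm-only count, but they are part of totals over union regions, of window densities and of whole lists. Of 110487 regions called in both islet libraries, 59.2% were also called in both sperm libraries, 22.3% (95% Wilson interval 22.0% to 22.5%) in neither, and the other 20516 regions in 1 of them. Of 122393 regions called in both sperm libraries the shares were 53.4% and 22.5% (22.3% to 22.8%), with 29448 regions called in 1 islet library. These intervals cover counting error only.

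In the 65368 regions called in all 4 libraries, islets differed from sperm by more than the libraries of a tissue differed from each other. The log2 ratio of scaled tags had an SD over regions of 0.63 for control islets against control sperm and 0.64 for T2D islets against T2D sperm. Within a tissue it was 0.46 for the islet libraries and 0.42 for the sperm libraries, where counting alone would give 0.31 and 0.26. A difference beyond 2-fold occurred in 10.8% and 11.2% of regions between tissues, but in 3.64% between islet libraries and 2.81% between sperm libraries. The average region was shared almost evenly, with median log2 ratios of -0.03 and -0.02 between tissues, which the scaling to list sums nearly fixes.

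**Figure D1:**
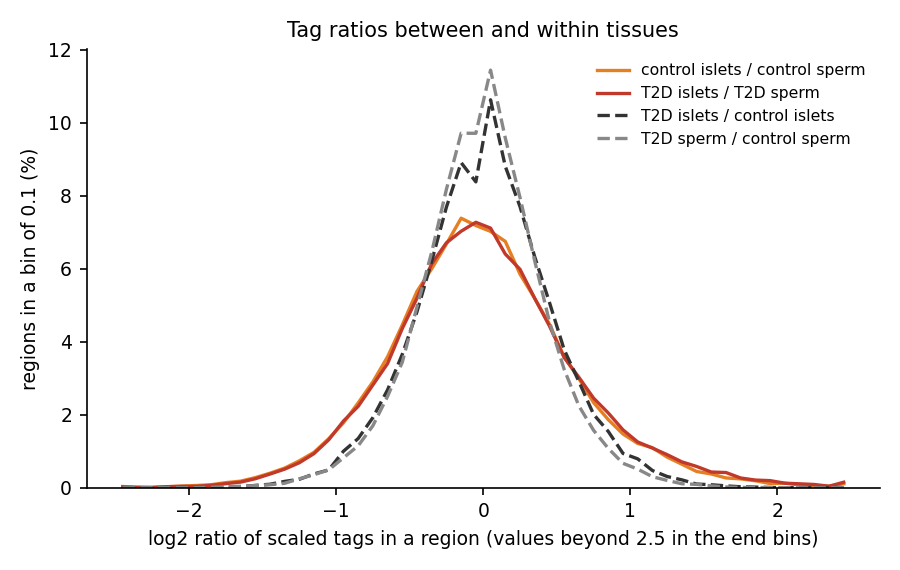
Share of the 65368 regions called in all 4 libraries (vertical axis, percent per bin of 0.1) by the log2 ratio of scaled tags between 2 libraries (horizontal axis). Solid lines compare islets with sperm (SD 0.63 and 0.64) and are broader than the dashed lines, which compare the libraries of a tissue (SD 0.46 for islets and 0.42 for sperm).

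The tissue ratio was shared by pairs of libraries that have no library in common. Over the 65368 regions the ratio of the control pair and that of the T2D pair had a Pearson correlation of 0.51, given as a description since neighbouring regions are not independent and both pairs share CpG density and mappability. Of the 7031 regions beyond 2-fold in the control pair, 85.6% lay on the same side in the T2D pair, against 65.0% of all regions.

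**Figure D2:**
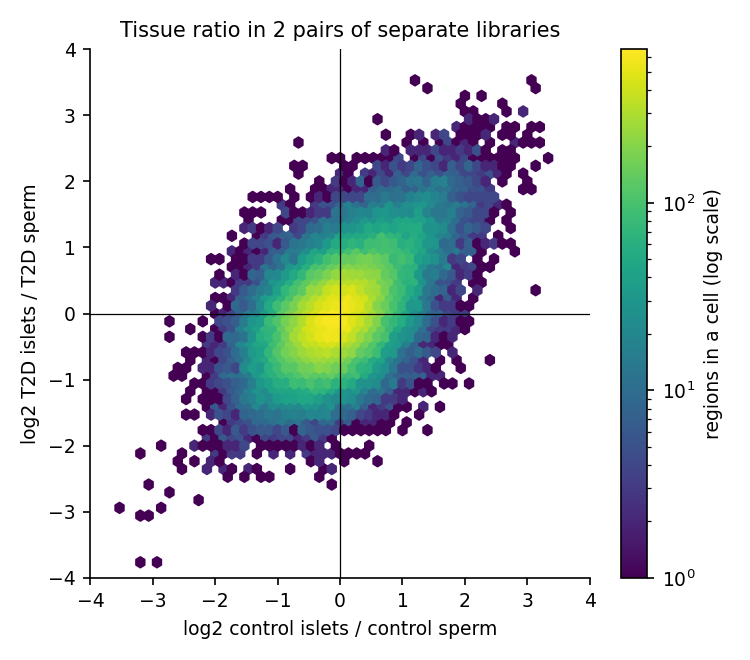
Each cell counts regions (colour, log scale) by the log2 ratio of control islets to control sperm (horizontal) and of T2D islets to T2D sperm (vertical). The cloud runs along the diagonal (r = 0.51 over 65368 regions).

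Both islet values lay above both sperm values in 16068 regions (24.6%) and below them in 17877 (27.3%). With 2 libraries a side, the smallest two-sided p that an exact permutation test of 1 region can give is 0.333. A stricter count asked that the gap between the tissues exceed both within-tissue differences. It held in 7284 regions with islets higher (11.1%) and in 6872 with sperm higher (10.5%).

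A fit across all 65368 regions (edgeR's quasi-likelihood test, Benjamini-Hochberg adjusted p under 0.05) called 4176 regions different between tissues, or 6.39%. Of these, 2848 (4.36% of those tested) were higher in islets and 1328 (2.03%) higher in sperm. Called regions differed by a median of 1.27 on the log2 scale. Over all 65368 regions the median size of the log2 ratio was 0.38 in either tissue pair, 0.28 between islet libraries and 0.26 between sperm libraries. Calls by edgeR changed with the library left out and were lost without either islet library. Such a fit leaves 1 library in a tissue, so its count of calls cannot tell whether a difference rests on the library left out. The 16 regions named below, picked for their large differences, kept their direction in these fits. Their fitted log2 differences were 2.23 to 3.84 and -3.75 to -2.48 without an islet library. Without a sperm library they were 2.81 to 4.00 and -3.63 to -2.48. DESeq2 called 1760 regions higher in islets and 492 higher in sperm.

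In the called regions the tissues differed in peak width as well as in tags. The calls select on tags, which are summed over the called peaks, so a wider peak can add tags. Tags and widths are therefore both given here as a description. In regions called higher in islets the median count was 93 tags for each islet library, 48 for control sperm and 45 for T2D sperm. Median peak widths there were 1321 bp (control islets), 1362 bp (T2D islets), 1021 bp (control sperm) and 998 bp (T2D sperm). Here islets had both the wider peaks and the denser tags, at 8.63 and 8.39 scaled tags per kb against 4.26 and 4.16 in sperm. Regions called higher in sperm held a median of 129 and 130 tags in control and T2D sperm and 38 and 40 in islets. Their sperm peaks were 1849 bp and 1874 bp wide and their islet peaks 859 bp and 911 bp, while scaled tags per kb were 6.40 and 6.47 in sperm and 5.54 and 5.41 in islets. In sperm-high regions the tissues were thus further apart in width than in tags per kb. Over all 65368 regions islets also held more scaled tags per kb, at 6.25 and 6.09 against 5.40 and 5.38 in sperm. Their median peak widths there were smaller, at 954 bp and 988 bp against 1127 bp and 1119 bp. The contrast between the 2 called sets includes these offsets.

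When tags were divided by the called width before testing (limma on log2 values), 2372 regions were higher in islets and 132 in sperm. That scale moves the median log2 ratio of all regions to 0.18. With each library centred on its median, a choice made after seeing the data, 373 and 127 regions were called. Islet-high calls made up 94.7% of all calls per kb before centring, 74.6% after it and 68.2% on the tag scale, and 82.9% (1375 against 284) with peaks of a caller score of at least 100.

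The largest differences were then taken region by region, choosing in each direction the 8 called regions with the largest fitted difference among those with at least the median mean tag count (58.8), whose libraries did not overlap. They spanned 7.52-fold to 14.1-fold in the islet-high set and 6.36-fold to 11.1-fold in the sperm-high set. In regions of both sets, the leading ones included, the lower tissue's counts came near the lowest in its lists. Those were 18 tags in islets and 21 in sperm, and a lower count could not have been reported. Per covered kb the fitted log2 differences of the 16 were smaller in all but 1, from 0.89 to 1.99 in the islet-high set and from -3.34 to -0.42 in the sperm-high set. All p-values in the next paragraphs are edgeR's, adjusted over the 65368 regions.

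The islet-high set was led by chromosome 6 from 135681080 to 135684408. It held 276 tags in control and 269 in T2D islets, and 23 in control and 29 in T2D sperm. As scaled tags these were 34.0 and 33.3 in islets and 2.09 and 2.64 in sperm, so the islet values nearly coincided. The fitted log2 difference was 3.82 (SE 0.24, adjusted p = 0.000133). The islet peaks spanned 3144 bp and 3241 bp of this region, while the sperm peaks were confined to 589 bp and 792 bp. On chromosome 5 from 134691461 to 134694722 there were 324 and 333 tags in islets and 52 and 40 in sperm (log2 3.27, SE 0.22, adjusted p = 0.000139). On chromosome 8 from 9205666 to 9209545 the counts were 258 and 242 against 39 and 31 (log2 3.27, SE 0.23, adjusted p = 0.000155). Here too the islet peaks covered 3578 bp and 3662 bp and the sperm peaks 731 bp and 644 bp.

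Next came chromosome 2 from 44856575 to 44858390, with 164 and 157 tags in islets and 28 and 26 in sperm. Chromosome 9 from 101189781 to 101192856 had 238 and 220 against 35 and 44. A second region on chromosome 5, from 138026095 to 138029094, had 220 and 227 against 35 and 43. In each of these the lower islet library was several times above the higher sperm library. Chromosome 11 from 114063307 to 114065263 held 182 and 189 tags in islets and 33 and 32 in sperm. The last, chromosome 10 from 117099055 to 117102210, was the least even within islets, with 99 tags in control and 218 in T2D islets against 27 and 30 in sperm, and its SE of 0.37 was the largest of the 16. Its peak was 1049 bp wide in control and 2981 bp in T2D islets.

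The sperm-high set was led by chromosome 13 from 97129332 to 97130218. It held 343 tags in control and 429 in T2D sperm, and 27 in control and 24 in T2D islets. As scaled tags these were 31.2 and 39.1 in sperm and 3.33 and 2.97 in islets (log2 -3.47, SE 0.24, adjusted p = 0.000147). Unlike the leading islet-high regions this one was short, with sperm peaks of 879 bp and 887 bp. Chromosome 16 from 56938460 to 56939548 followed, with 428 and 452 tags in sperm and 43 and 24 in islets (log2 -3.27, SE 0.26, adjusted p = 0.000189). There the control islet peak of 858 bp was wider than either sperm peak (612 bp and 724 bp). Width did not separate the tissues there. Chromosome 9 from 55621733 to 55622928 had 384 and 393 tags in sperm against 25 and 39 in islets.

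Chromosome 3 from 74037092 to 74037918 had 229 and 296 tags in sperm against 20 and 25 in islets. A second region on chromosome 16, from 97942345 to 97943998, had 295 and 298 against 24 and 27. On chromosome 5 from 105122292 to 105123837 the counts were 271 and 260 against 23 and 32. These 3 regions were 827 to 1654 bp wide, and their islet counts of 20 to 32 tags were close to the lowest in the islet lists (18 tags). The remaining pair was broad. On chromosome 12 from 33986598 to 33990403 the sperm peaks of 3649 bp and 2500 bp held 243 and 232 tags, against 25 and 22 in islet peaks of 519 bp and 563 bp. On chromosome 17 from 87388640 to 87391959 the counts were 220 and 282 in sperm against 25 and 33 in islets.

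**Figure D3:**
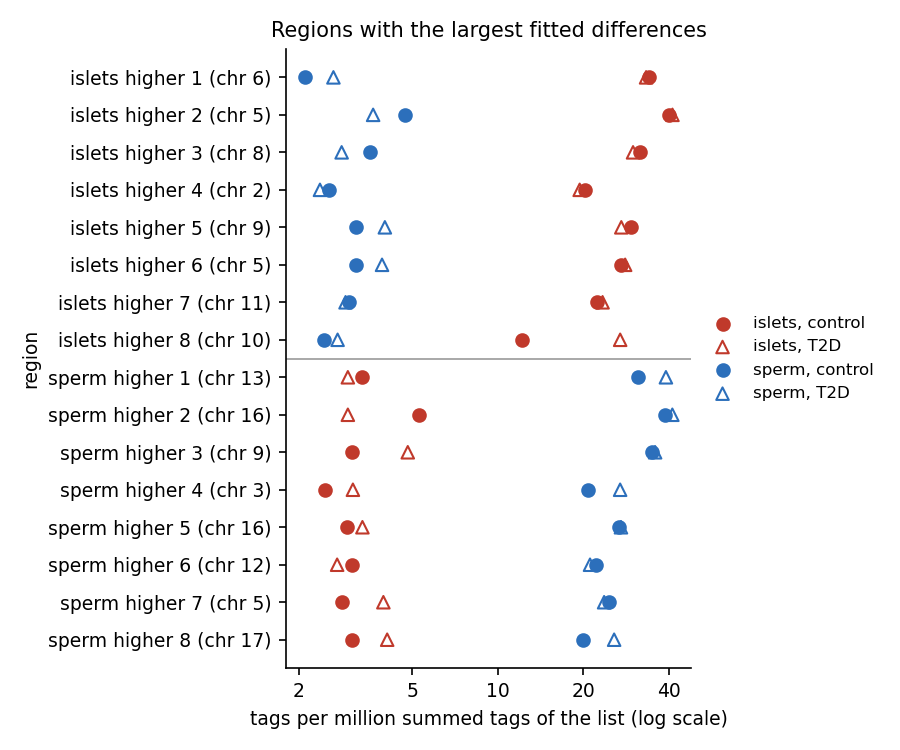
Scaled tags (horizontal, tags per 1000000 tags of the list, log scale) in each of the 4 libraries for the 16 regions with the largest fitted differences, 8 in each direction (rows). Circles are paternal control, triangles paternal T2D, red islets and blue sperm; in every row the islet and sperm symbols are apart, and the widest gap within a tissue is that of the islet symbols in the last islet-high row (12.2 and 27.0).

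The order of region widths between the directions depended on how many regions were taken. The islet-high 8 had a median region width of 3116 bp and the sperm-high 8 of 1371 bp. Over the 100 largest differences in each direction, chosen in the same way, it was 2381 bp (quartiles 1878 and 2845 bp) and 2201 bp (1558 and 2540 bp). Over all called regions the order was the opposite, with medians of 1618 bp for the 2848 islet-high and 2086 bp for the 1328 sperm-high regions. Among all regions called in 4 libraries, the share called rose with width in both directions. Of regions up to 1 kb, 2.62% were called higher in islets and 0.506% higher in sperm, and of regions over 3 kb 11.3% and 9.60%. A region spans its merged peaks, so a broad peak in 1 library is enough to make it wide and can add tags there. Wider regions also hold more tags. The parts of this definition and of tag depth in the trend were not tested. Grouped by unscaled mean tags, the lowest decile of regions (20 to 34.75 mean tags) gave 1.26% higher in islets and 0 of 6536 regions higher in sperm. The lowest counts were 18 tags in the islet lists and 21 in the sperm lists, so a low mean bounds the difference a region can show. Because the sperm lists hold more tags, this bound is tighter for sperm-high than for islet-high differences, and the 0 is not a result about depth alone. The highest decile (113.75 or more) gave 6.72% and 4.57%. In the lowest decile the SD of the tissue ratio was 0.48 against 0.42 within tissues, and in the highest 0.65 against 0.39.

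Sperm peaks were wider than islet peaks across the lists. The median autosomal width was 868 bp for control islets, 901 bp for T2D islets, 991 bp for control sperm and 982 bp for T2D sperm. Islets minus sperm came to -102 bp, and T2D minus control to 33 bp in islets and -9 bp in sperm. In regions called in all 4 libraries the islet peak was the wider in 30.2% of regions in the control pair and 34.6% in the T2D pair, while the T2D peak was the wider in 55.4% of regions in islets and 49.2% in sperm. The shortest peak of each list was 289 bp and 310 bp in islets and 317 bp and 319 bp in sperm. The caller's fragment length was 278 bp and 272 bp for the sperm libraries, and no source used here gives it for islets. Its part in the width difference, and that of the deeper sperm lists, was not tested.

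The position of the summit, the densest point of a peak, was mostly kept between tissues. In the 63236 regions with exactly 1 peak in each library, the summits of control islets and control sperm lay a median of 31 bp apart and those of the T2D pair 32 bp, against 29 bp between islet libraries and 27 bp between sperm libraries. Within 100 bp lay 81.6% and 80.6% of summits between tissues, and 84.3% and 85.3% within islets and sperm. Summits over 500 bp apart were somewhat more frequent between tissues, at 5.69% and 6.22%, than within islets (4.13%) or sperm (3.98%).

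Regions called in 1 tissue alone had median tag counts a little above the list medians in islets and below them in sperm. Islet-only regions had a median of 42 and 43 tags in control and T2D islets, and sperm-only regions 43 and 44 in sperm, where the list medians were 39 and 50. The list medians include peaks called in 1 library only. Regions called in all 4 libraries held higher medians, of 48 and 49 tags in islets and 67 and 66 in sperm. The share of both-library regions missing from the other tissue changed with tags in different ways. For islets it was 32.9% in the lowest decile by the lower of the 2 tag counts, 18.9% in the seventh and 21.3% in the highest. For sperm it was 45.1% in the lowest decile and 9.31% in the highest, with 9.97% in the top 1%. In the top 0.1% it was 18.9% for islets (21 of 111 regions) and 13.8% for sperm (17 of 123). The deciles begin at different counts, the highest at 87 tags for islets and 109 for sperm, and the difference between tissues was not tested.

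The islet-only regions with the most tags, with no sperm peak within 1000 bp, began with chromosome 5 from 114744310 to 114750528. It held 373 tags in control and 440 in T2D islets, in 2 peaks a library, with the nearest sperm peak 1324 bp away. Chromosome 8 from 3994441 to 3997813 had 320 and 299 tags. Both were broad, at 6219 bp and 3373 bp. Then came chromosome 7 from 29997025 to 29999228 with 357 and 279 tags, chromosome 6 from 23107172 to 23109550 with 280 and 311, and chromosome 8 from 125418474 to 125420927 with 335 and 277. Their deposited enrichment over local background ran from 3.06 to 5.29, below the islet list medians of 7.34 and 7.25.

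Sperm-only regions, picked in the same way, were led by a region with more scaled tags than any islet-only region named above. The islet-only values ran from 34.3 to 54.5 scaled tags. Chromosome 13 from 120276334 to 120282520 held 1652 tags in control and 1797 in T2D sperm, or 150.3 and 163.8 scaled tags, with an islet peak 3008 bp away. On chromosome 3 from 14983335 to 14984181 there were 608 and 605 tags in 847 bp. Chromosome 8 from 46124615 to 46128056 held 634 and 593, and chromosome 14 from 119305390 to 119311110 held 626 and 580. As scaled tags these regions on chromosomes 3, 8 and 14 ran from 52.9 to 57.7, close to the highest islet-only value. Among these 4, the short region on chromosome 3 had a deposited enrichment of 11.44 and 11.23, and the others ran from 3.24 to 6.57, below the sperm list medians of 6.77 and 6.74. The fifth, chromosome 14 from 105387368 to 105388357, was 990 bp wide, with 393 and 394 tags, a deposited enrichment of 17.58 and 17.35, and no islet peak within 16589 bp. Its 35.75 and 35.91 scaled tags lay within the range of the named islet-only regions. The sperm peaks were called without an input library, and copy number and mappability were not measured here.

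Tissue differences were arranged along the chromosomes. Neighbouring regions called in all 4 libraries had similar tissue ratios, with a correlation of 0.37 over 466 pairs under 1 kb apart, 0.21 over 8038 pairs 2 to 5 kb apart and 0.15 over 18179 pairs 20 to 50 kb apart. It was still 0.15 over 4287 neighbours more than 100 kb apart. The within-tissue ratios showed less of this, at 0.06 for islets and 0.09 for sperm under 1 kb and from -0.005 to 0.03 at all distances over 1 kb. These correlations are descriptions over regions that share libraries, and the tissue ratio is a mean over 2 pairs. The control and T2D pairs taken singly gave 0.26 and 0.31 under 1 kb and 0.12 and 0.12 beyond 100 kb. Base composition, which neighbours share, was not measured.

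**Figure D4:**
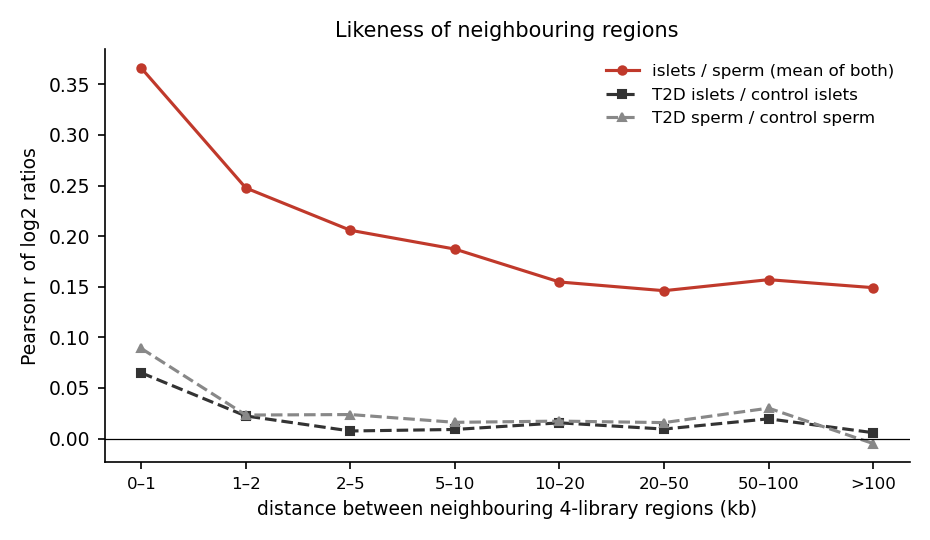
Pearson correlation (vertical) of the log2 ratio between neighbouring regions called in all 4 libraries, by the distance between them in kb (horizontal). The islet to sperm ratio (red) runs from 0.37 at the shortest distance to 0.15 beyond 100 kb, and both within-tissue ratios (dashed) stay under 0.1.

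Over 1 Mb windows with at least 20 such regions, the mean tissue ratio had an SD of 0.17 across 1532 windows, against 0.09 and 0.08 for the within-tissue ratios. The control and T2D pairs had the same sign in 1180 windows (77.0%). The mean ratio ranged from -0.48 to 1.00, and 11 windows were above 0.5 and 0 below -0.5. At a limit of 0.3 the sides were closer, with 55 windows above and 47 below. The pairs differed there, with 53 above and 84 below in the control pair and 65 and 49 in the T2D pair. For the within-tissue ratios 0 windows passed 0.5 in either direction.

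The 4 windows most in favour of islets began with chromosome 5 from 146000001 to 147000000. Its 20 regions had a mean log2 ratio of 0.84 in the control and 1.16 in the T2D pair, 10 of them were called higher in islets and 0 higher in sperm, and 14 further regions were islet-only against 2 sperm-only. Chromosome 8 from 19000001 to 20000000 had 0.90 and 0.84 over 31 regions, with 15 called higher in islets. Chromosome 18 from 3000001 to 4000000, at the start of its assembled sequence, had 0.88 and 0.86 over 24 regions, with 20 islet-only and 7 sperm-only regions. Chromosome 7 from 27000001 to 28000000 had 0.75 and 0.80 over 21 regions, with 19 islet-only and 4 sperm-only regions. All 4 windows held few regions for 1 Mb, between 84 and 108.

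The windows most in favour of sperm differed by less. Chromosome 12 from 30000001 to 31000000 had -0.46 in the control and -0.51 in the T2D pair over 27 regions, none of them called singly, with 3 islet-only and 17 sperm-only regions. Chromosome 12 from 108000001 to 109000000 had -0.48 and -0.41 over 42 regions, 5 of them called higher in sperm and 1 in islets. Chromosome 7 from 143000001 to 144000000 had -0.47 and -0.42 over 51 regions. Chromosome 11 from 36000001 to 37000000 had -0.42 and -0.44 over 29 regions, with 8 islet-only and 26 sperm-only regions. These windows held 125 to 181 union regions each.

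Peak density separated the tissues more than chromosome did. Windows were ranked by their number of union regions and regions divided into 5 classes of near-equal size, a choice made after seeing the data. In the poorest class (windows of 4 to 104 regions) 10.5% of the 9776 regions called in 4 libraries were called higher in islets and 1.08% higher in sperm. In the richest class (187 to 220 regions) the shares were 2.83% and 2.45% of 14042. In the 3 classes between them 4.5%, 3.2% and 2.7% were called higher in islets, so the main step lay between the poorest class and the next. The median of the mean tissue ratio was 0.13 in the poorest class and -0.04, -0.06, -0.06 and -0.07 in the others. Over the 1532 windows, the mean tissue ratio and the number of union regions had a Pearson correlation of -0.22. The median log2 ratio was 0.13 and 0.15 in the control and T2D pairs in the poorest class, and -0.06 and -0.05 in the richest. Regions of the poorest class held a median of 45.5 mean tags and those of the richest 71.5. The median log2 ratio also ran with tags, from 0.09 in the lowest tag decile to -0.06 in the highest, and the part of tag depth in the density pattern was not tested. Those deciles are cut on unscaled tags, of which the sperm lists hold more. The within-tissue medians moved by less, at 0.006 in both classes for islets and -0.02 and -0.01 for sperm.

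The same held for regions called in 1 tissue. In the poorest class 11.2% of union regions were islet-only and 8.47% sperm-only, and in the richest 7.68% and 9.04%. Of all tags in its list, the poorest class held 15.1% in control and 15.7% in T2D islets but 12.1% and 12.3% in control and T2D sperm. The islet values lay above both sperm values by more than either tissue's libraries differed.

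**Figure D5:**
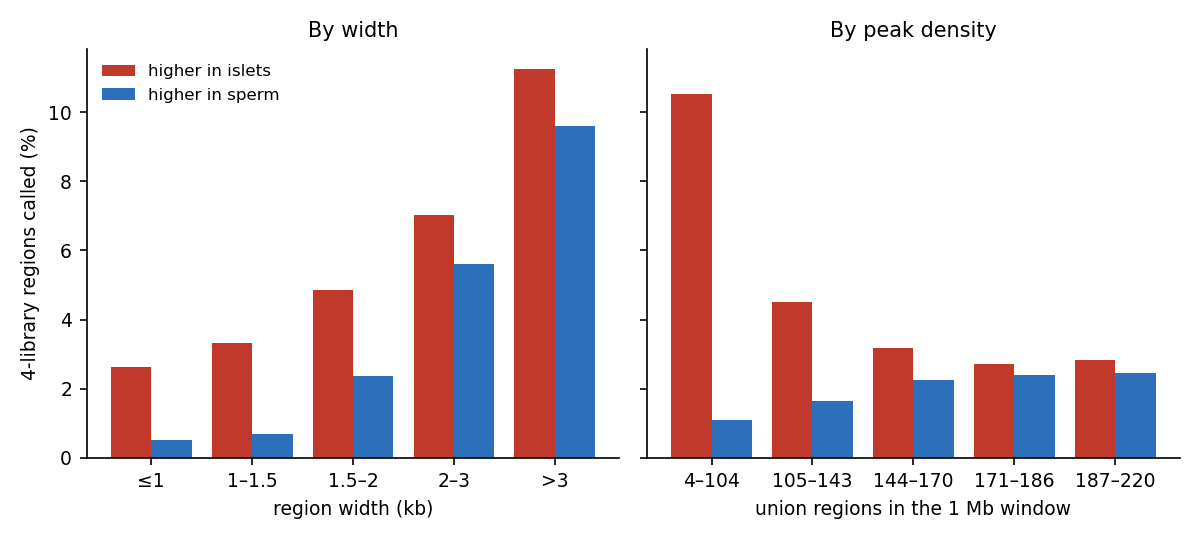
Percent of regions called in all 4 libraries that edgeR called higher in islets (red) or in sperm (blue), by region width in kb (left) and by the number of union regions in the 1 Mb window (right). Both colours rise with width, from 2.62% and 0.506% to 11.3% and 9.60%. A region spans its merged peaks, so a broad peak in 1 library is enough to make it wide. With peak density red falls from 10.5% in the poorest class to 4.5% in the next and 2.83% in the richest, and blue rises from 1.08% to 2.45%.

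The first 5 Mb of the autosomes, counted from the first peak of each and on the centromere side in mouse chromosomes, leaned to islets. There 9.48% of 2269 regions called in 4 libraries were called higher in islets and 1.98% higher in sperm, against 4.15% and 2.02% of 60058 regions in the chromosome body. The median log2 ratio was 0.10 in the control and 0.14 in the T2D pair there, and -0.04 and -0.03 in the body. In 16 of 19 autosomes the median of the first 5 Mb was above that of the body. It was largest on chromosome 3 (0.67 over 51 regions), apart from chromosome 14 with 7 regions, and the 3 exceptions were chromosomes 2, 16 and 17 with -0.06, -0.09 and -0.06. The last 5 Mb, counted back from the last peak, resembled the body, with 4.60% and 2.37% called. The contrast varied with peak density. In the poorest class 15.0% of regions in the first 5 Mb and 10.2% in the body were called higher in islets. The shares were 12.7% and 4.08% in the second poorest class, 6.05% and 3.03% in the third and 3.90% and 2.66% in the fourth. In the richest class, with 143 regions in the first 5 Mb, they were 2.80% and 2.78%, with 3.50% and 2.36% called higher in sperm. The median log2 ratio was higher in the first 5 Mb than in the body in every class. It was 0.299 against 0.115 in the poorest class and 0.035 against -0.069 in the richest.

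Whole autosomes hardly differed. The median log2 ratio ranged from -0.07 on chromosome 9 to 0.001 on chromosome 10. Islet-only regions made up 7.43% (chromosome 11) to 9.31% (chromosome 10) of union regions, and sperm-only regions 8.28% (chromosome 17) to 9.56% (chromosome 10). Chromosome 17 was the single autosome on which islet-only regions outnumbered sperm-only regions.

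Spacing also differed between the tissues. Within a list, the gap to the next peak had a median of 7668 bp for control islets, 7801 bp for T2D islets, 6865 bp for control sperm and 6866 bp for T2D sperm. A gap under 5 kb followed 34.3% and 33.7% of islet and 38.2% and 38.0% of sperm peaks. Islet-only regions lay a median of 2943 bp from the nearest sperm peak and sperm-only regions 2971 bp from the nearest islet peak, so the typical distances were alike. Far from the other tissue, however, 283 islet-only regions (1.15%) but 71 sperm-only regions (0.258%) had no peak of the other tissue within 50 kb.

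Among regions alike within both tissues, consecutive islet-only regions formed longer runs than consecutive sperm-only regions. Runs of 5 or more held 4.00% of islet-only regions in 161 runs and 2.03% of sperm-only regions in 103 runs, and 20 islet runs but 3 sperm runs reached 8 regions. The longest islet run counted 15 regions over 1.96 Mb on chromosome 7 from 32373139 to 34329655, with 19 to 103 tags each. In that interval, regions split within a tissue included, the lists held 27 and 36 peaks in control and T2D islets and 6 and 2 in sperm. The next had 12 regions on chromosome 17 from 38203525 to 38633937 (18 and 20 islet peaks, 5 and 4 sperm peaks). Then came 3 runs of 11 regions, on chromosome 2 from 88018838 to 88458342, on chromosome 5 from 84710191 to 85368914 and on chromosome 6 from 131524428 to 131952032. The run on chromosome 5 was the least exclusive, with 21 and 26 islet and 9 and 16 sperm peaks in its interval.

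The sperm runs were shorter in regions and in bases. The longest had 9 regions in 147 kb on chromosome 8 from 17489845 to 17637176, where each sperm list held 12 peaks and the islet lists 1 (control) and 2 (T2D). Runs of 8 lay on chromosome 7 from 141644514 to 141763316, with 9 peaks in each sperm list and 0 and 1 in islets, and on chromosome 8 from 85403741 to 85507638, with 14 and 10 in sperm and 2 in each islet list. Tags in these runs were from 21 to 82 per region and library, and in the 5 islet runs from 19 to 120. The median over regions of a run was 25 to 39 tags in each library of its tissue.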

How the data were processed

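Per the submitters' processing notes, CASAVA 1.4 and build mm9 were used. Per the file headers, the authors called sperm peaks with MACS (p-value cutoff 1.00e-05, no input) on 31053754 and 31833988 unique tags of 49 bp; for islets no source used here gives the caller, settings or depth. Each list gives deposited counts of tags per peak, deposited peak widths and summits, a deposited score (the caller's p-value on a negative log10 scale) and a deposited ratio, the fold enrichment over background. Regions were merged with numpy 2.4.6 and pandas 2.3.3 (overlap of at least 1 bp), and tags of a library's peaks were summed per region. A region missing from a list has no call there, which is not a measured 0. Regions with peaks in all 4 libraries were tested with edgeR 4.0.16 (R 4.3.3), library size being the list's autosomal tag sum and no covariate being used, with Benjamini-Hochberg adjustment at 0.05. Standard errors are the size of the log2 difference divided by the root of its F value. Alternatives used DESeq2 1.42.0 and limma 3.58.1, other scalings and region definitions, and fits without each library. Counts were simulated for these 65368 regions with 200 changed. The fit recovered 21% of log2 changes of 1 and 100% of log2 changes of 2, with 5 false calls. The simulation gave every region the same dispersion (0.0274), and its 200 changed regions are fewer than the 4176 called in the data. Recovery and false calls in the data can therefore differ from these values. Named were the 8 called regions per direction with the largest fitted difference, at least the median mean tags and no overlap between tissues, 5 tissue-only regions per tissue by the lower scaled tag value, the 4 highest and 4 lowest windows, and the 3 longest runs per tissue with ties. The regions, rules and tests were chosen with earlier results of these data known. Nothing in the labels shows how animals were combined, so p-values measure the spread between these libraries only.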

Additional observations from a re-analysis of the deposited data

Results flagged for a closer look

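For 3 quantities the T2D library departed from the control library in opposite directions in the tissues. Each rests on 1 library per condition and tissue, and the difference between tissues was not tested. T2D minus control came to -634 autosomal peaks in islets and 1300 in sperm. For median width it came to 33 bp in islets and -9 bp in sperm. For the median of scaled tags in regions called in all 4 libraries it came to 0.146 in islets and -0.0802 in sperm. These values are per 1000000 tags of the list. Before scaling, the medians were 48 and 49 tags in control and T2D islets and 67 and 66 in control and T2D sperm. Covered bases were compared too and rose in both tissues, by 5.58 Mb in islets and 0.0149 Mb in sperm. The 3 quantities above are listed because their directions differed.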

How the results depend on the processing

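Counts of called regions (2848 higher in islets, 1328 in sperm) stayed within 1.5 times with TMM factors, with library sizes from the whole list or from 4-library regions, with at least 30 mean tags and with 1 peak per library. With condition as a replicate block they were 3273 and 1663; control and T2D mark fathers and not shared animals. No other paired analysis was possible because the labels give no replicate numbers. Other settings gave fewer calls: 1760 and 492 with DESeq2, 1375 and 284 with peaks of a caller score of at least 100 (15163 regions tested), 809 higher in sperm with peaks merged within 1000 bp, 132 higher in sperm per covered kb, and 373 and 127 per covered kb after centring. Leaving out 1 library gave 0 to 1197 islet-high and 0 to 419 sperm-high calls; the single library is then assumed to vary like the other tissue's pair. The 16 named regions kept their direction in every setting that gave them a value and lost their call in 43 fits, 16 without the control and 16 without the T2D islet library (adjusted p 0.106 to 0.109), 4 per covered kb and 7 with centring. Without an islet library their log2 differences were 2.23 to 3.84 and -3.75 to -2.48, with fewer samples in the fit. Per covered kb some fell strongly, from 3.27 to 0.89 on chromosome 8 and from -2.89 to -0.42 on chromosome 12. The ratio of between-tissue to within-tissue SD, 1.43, was 1.24 per covered kb. The share of regions with a gap over both within-tissue differences (11.1% islet-high, 10.5% sperm-high) became 11.8% and 9.78% with TMM, 16.1% and 7.07% at a score of at least 100, 16.2% and 3.54% per covered kb, and 10.8% sperm-high with at least 30 mean tags. Tissue-only regions (24603 and 27577) numbered 11379 and 14549 at that score, and 16871 in sperm for the best 100000 peaks of each list, where islet-only regions were the more numerous at 18998. Leaving out 1 library gave 34060 to 49496 and 42462 to 58948, since a single call then counts as the tissue. The width difference of -102 bp was -148.5 bp in regions with 1 peak per library and -85.5 to -118.5 bp without 1 library. The correlation of neighbours under 5 kb apart, 0.22, was 0.36 at a score of at least 100 and 0.16 per covered kb. The SD over windows, 0.168, was 0.175 for 0.5 Mb, 0.174 for 2 Mb and 0.139 at that score, where 4 windows held enough regions, and 0.165 to 0.181 without 1 library. The range over autosomes, 0.0749, was 0.0863 at that score and 0.0736 to 0.0834 without 1 library. The contrast of first 5 Mb to body, 0.154, was 0.136 to 0.163 without 1 library. The contrast of poorest to richest windows in median log2 ratio, 0.195, was, in alternatives chosen after seeing the data, 0.131 per covered kb, 0.128 and 0.261 with windows ranked by islet or by sperm peaks alone, 0.185 without the first 5 Mb, 0.184 at that score and 0.187 to 0.200 without 1 library. Islet depth is unknown, and near the lowest reported counts of 18 and 21 tags a difference could not be seen.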
